A study of Mus musculus with 8 samples.

Results

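Antioxidant defence genes encode the enzymes that remove superoxide, hydrogen peroxide and lipid peroxides, the systems that supply them with reducing power, and the regulators that set their transcription. A list of 36 such genes, grouped by role, was read in islets of β-cell-specific fibulin-5 knockout (βFbln5KO) mice and their controls. The members were found by symbol through the RefSeq accession of the array's probes, without use of any measured difference. All 36 had a named probe, among 22911 genes with one on the array. The scanner software called 35 of them well above background on each of the 8 arrays, as it did 13650 genes in total. A gene with several probes was read from the one with the highest mean over the 8 arrays.

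Superoxide dismutases turn superoxide into hydrogen peroxide. Catalase, the glutathione peroxidases and the peroxiredoxins then reduce the peroxide, and glutathione, thioredoxin and NADPH carry the electrons. Nrf2, encoded by Nfe2l2, induces many of these genes through antioxidant response elements when Keap1 no longer directs its degradation. β-cells are known for low catalase and glutathione peroxidase activity relative to the liver. Sod3, the extracellular superoxide dismutase, is a known binding partner of fibulin-5, the secreted matricellular protein removed in these mice.

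The controls were Fbln5-floxed mice without Cre. The βFbln5KO mice carried the same floxed allele together with Ins1-Cre, in which the insulin 1 promoter drives the recombinase, so that deletion is aimed at β-cells and the other islet cells keep the gene. A control with Ins1-Cre alone was not analysed here. All mice were male and 11 weeks old, each extraction used 150 islets, and 4 arrays per group were read on 1 slide. The sources do not say whether an extraction came from 1 animal or a pool, so the p-values measure only the spread between these samples. Each genotype filled 1 row of the slide, and the effects of row and genotype cannot be told apart.

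Signals are given as log2 of the processed signal minus the array's 75th percentile, so that 0 is the level below which 75% of the array's spots lie. The 75th percentile was between 709.4 and 1055, and 52.6% to 58.8% of 59305 spots were well above background. Levels are compared within a gene and not between genes, since probes differ in their response. The 8 β-cell markers, Ins1, Ins2, Iapp, Slc2a2, Mafa, Nkx6-1, Pdx1 and Ucn3, were well above background on every array. Fbln5 itself read −1.70, −1.32, −2.05 and −1.83 in control and −2.74, −2.40, −2.38 and −1.37 in βFbln5KO. The array labelled βFbln5KO replicate 4 lay inside the control range, and the log2 fold change was −0.50 (SE 0.29, limma adjusted p = 0.342) with it and −0.78 (SE 0.19, adjusted p = 0.0227) without it. The floxed exons are the first of the gene, and the place of the probe relative to them is not given in the sources used here.

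That array stood apart in other genes too. On it, 442 genes were well above background and at least 2-fold above all 7 other arrays, against 115 to 267 such genes on each of the others. All 12 genes of a hepatocyte list, chosen after these values were seen, were well above background there, against 2 or 3 of 12 on every other array. Alb, which encodes serum albumin, read 3.25 there and −6.49 to −3.57 elsewhere. The summed linear signal of the list, in units of the array's 75th percentile, was 65.6 on that array, 4.04 to 4.93 on the control arrays and 4.07 to 4.82 on the other βFbln5KO arrays. Several members are given with and without this array, and the members' median log2 fold change without it was −0.0023. In the fit without it, 11206 probes were higher and 338 lower at an adjusted p of 0.05, out of 56603, so an adjusted p from that fit is read against a far larger share of calls than one from all 8 arrays.

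The promoters that the data bear on are shown first, from the RefSeq-based promoter table (GRCm38.p6), which had an entry for 30 of the 36 members. Gclc, Gsr, Gsta4, Hmox1, Prdx6 and Sod3 had none. Each window runs from 250 bases before a transcript's start to 50 bases after it, on the gene's own strand, and the first 250 bases are printed. The table's Mt1 window is that of a transcript starting inside the annotated gene, so most of its printed stretch overlaps the gene's span given below. The genes are the member with the smallest p by its brightest probe (Prdx1) and the metallothionein pair whose levels moved together from array to array. Txnip, which is known for its induction by glucose, is shown too. Capitals mark the antioxidant response element TGACNNNGC in Prdx1 and the pattern TGCNCNC, a loose form of the metal response element, in Mt1 and Mt2. In Txnip they mark the pair of CACGNG boxes 5 bases apart, the form of a carbohydrate response element, with the bases between them. Both strands were searched, and N is any base.
Prdx1, chr4:116685349-116685598, plus strand: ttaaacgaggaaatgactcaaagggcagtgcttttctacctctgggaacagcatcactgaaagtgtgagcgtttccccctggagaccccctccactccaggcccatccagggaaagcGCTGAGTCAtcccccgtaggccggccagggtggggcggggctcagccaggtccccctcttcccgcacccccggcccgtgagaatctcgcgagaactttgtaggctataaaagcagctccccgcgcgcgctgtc
Mt1, chr8:94178839-94179088, plus strand: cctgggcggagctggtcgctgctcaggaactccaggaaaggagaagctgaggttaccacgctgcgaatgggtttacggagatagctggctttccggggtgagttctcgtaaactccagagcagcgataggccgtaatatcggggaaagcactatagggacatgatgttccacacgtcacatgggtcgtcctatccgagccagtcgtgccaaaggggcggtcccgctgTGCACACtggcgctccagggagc
Mt2, chr8:94172368-94172617, plus strand: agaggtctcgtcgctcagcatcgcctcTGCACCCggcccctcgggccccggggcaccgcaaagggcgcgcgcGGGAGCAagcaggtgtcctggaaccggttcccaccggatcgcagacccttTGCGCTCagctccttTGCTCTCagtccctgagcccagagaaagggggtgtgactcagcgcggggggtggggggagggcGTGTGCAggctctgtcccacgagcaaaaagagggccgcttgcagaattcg
Txnip, chr3:96557707-96557956, plus strand: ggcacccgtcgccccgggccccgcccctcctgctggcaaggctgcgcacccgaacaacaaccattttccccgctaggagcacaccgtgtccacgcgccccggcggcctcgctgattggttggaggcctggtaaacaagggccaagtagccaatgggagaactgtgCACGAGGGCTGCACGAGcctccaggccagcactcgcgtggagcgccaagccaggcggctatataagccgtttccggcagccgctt

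Some genes have several windows, and the 30 members had 36. The antioxidant response element lay in 8 of those 36, each of another gene, namely Prdx1, Mt2, Nfe2l2, Srxn1, Gclm, Sod1, G6pdx and Txnrd1 (1 of its windows), and in 12.4% of all 32851 windows. In Prdx1 it lies on the minus strand, 133 to 125 bases before the start. In Mt2 it lies on the plus strand, 79 to 71 bases before the start, between metal response elements. The metal response element is short and was in 51% of all windows, but only 7.1% held 3 or more. Mt2 held 6, of which the printed stretch shows 5, and Mt1 held 3, of which it shows 1, and the rest lie after the start. The pattern was in the windows of 17 of the 30 members, and those of Srxn1, Gclm and Gstm1 also held 3. The paired boxes of Txnip, 85 to 69 bases before its start, were in 0.0487% of all windows and in no other member's. These matches are letters in a sequence, and binding was not measured.

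The antioxidant defence genes showed little difference between genotypes. Read from their brightest probes, 0 of the 36 members passed an adjusted p of 0.05 in limma. The lowest adjusted p was 0.165, and 0.0106% of all 56605 probes passed. At an unadjusted p under 0.05, 1 member was higher (Prdx1) and 0 were lower. Over all probes these shares were 20.7% higher and 3.97% lower. Probes that were well above background on no array were called higher in 57.4% of cases, with a median log2 fold change of 0.47. Among genes well above background on all 8 arrays the shares were 1.01% higher and 3.08% lower, and a count of 1 among 35 members is near them. By brightest probe, Prdx1 was also the 1 member whose groups did not overlap. The shares of those genes were 0.733% with all βFbln5KO arrays higher and 2.07% with all lower. The groups of a second, dimmer Txnrd1 probe, given below, did not overlap either.

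The members' changes were small and their intervals mostly narrow. The median log2 fold change of the 36 was 0.034, beside 0.024 over all genes and −0.0082 over genes well above background on all 8 arrays. The point estimate was above 0 for 23 members and below 0 for 13. It was under 0.15 in size for 33 of them. The 95% limma interval lay within a 1.5-fold change either way for 32 members, and within a 1.2-fold change for 22. Cat, Prdx4, Mt2 and Gsta4 were the 4 members with wider intervals. The median spread within a group (SD) was 0.095 for members and 0.128 for genes well above background on all 8 arrays.

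**Figure D1:**
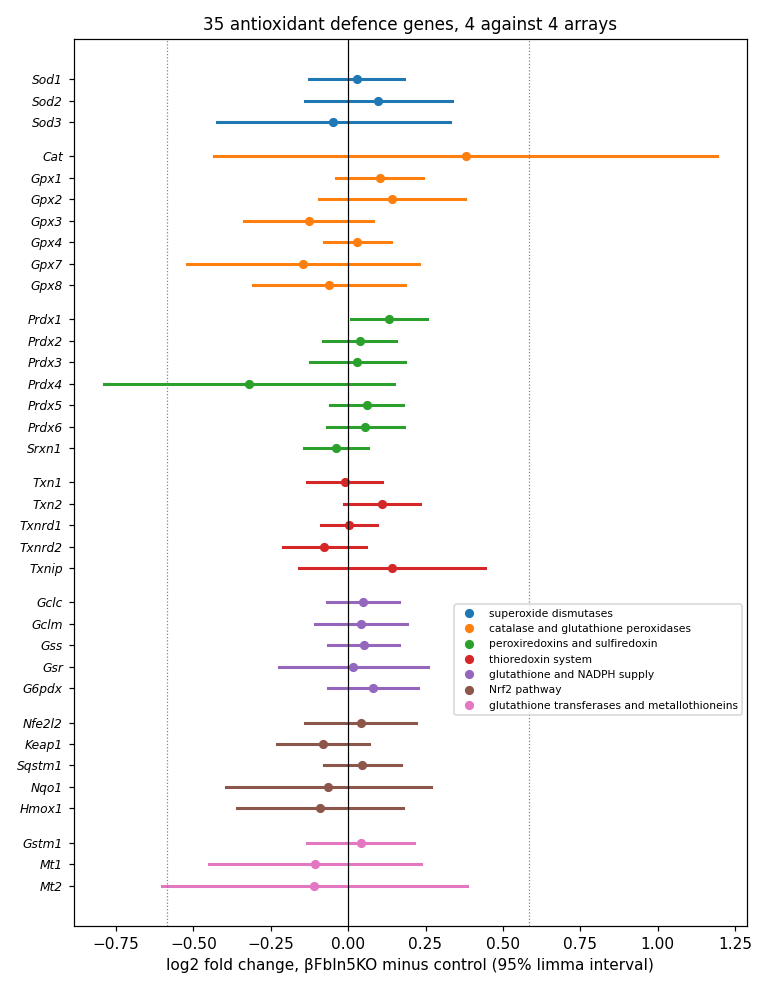
Log2 fold change (βFbln5KO minus control, x axis) of 35 members by role group, as points with 95% limma intervals; dotted lines mark a 1.5-fold change and Gsta4 is left out because its interval runs from −2.77 to 5.48. Prdx1 alone has an interval that does not cross 0, and Cat, Mt2 and Prdx4 have the widest ones.

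**Figure D2:**
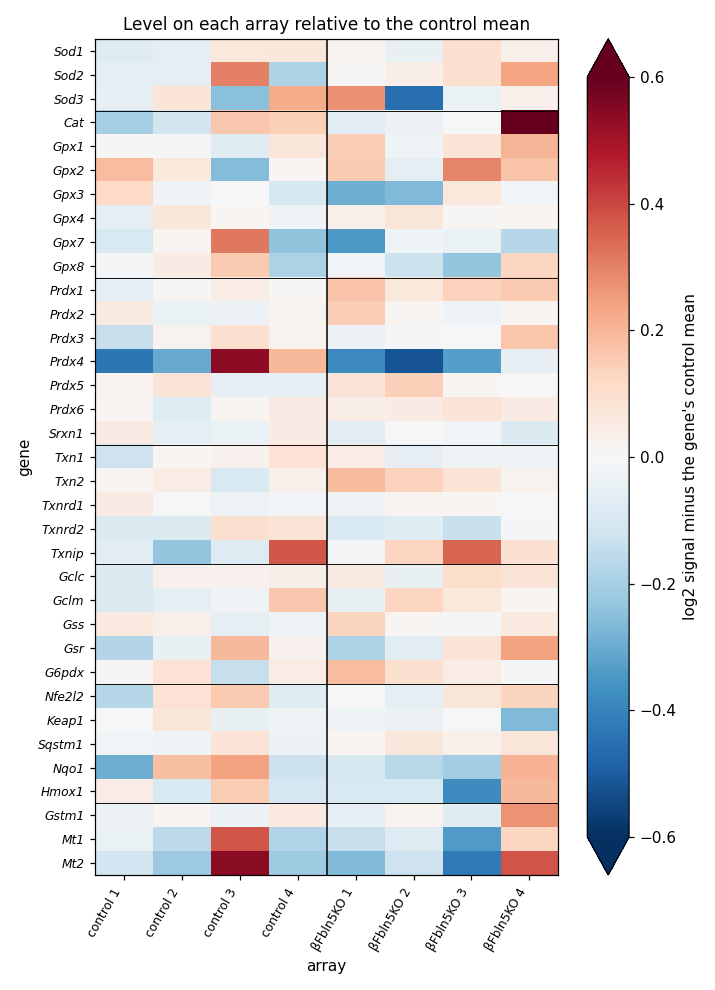
Log2 signal of the same 35 members on each of the 8 arrays (x axis), coloured by its difference from the gene's control mean, with the scale ending at −0.6 and 0.6; lines part the role groups and the genotypes. The darkest red cells are single arrays, control 3 for Prdx4 and Mt2 and the array labelled βFbln5KO 4 for Cat.

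Among the superoxide dismutases, which convert superoxide in the cytosol (Sod1), the mitochondria (Sod2) and outside the cell (Sod3), none passed the test. Sod3 (chr5:52363804-52369738) read −1.64, −1.51, −1.84 and −1.37 in control and −1.31, −2.04, −1.63 and −1.56 in βFbln5KO. The groups overlap, and both the highest and the lowest values are βFbln5KO arrays. Its log2 fold change was −0.047 (SE 0.17, 95% interval −0.42 to 0.33, limma adjusted p = 0.913). With 4 arrays per group, a change of a size within that interval was not excluded. The sign of that estimate turned when control replicate 4 (0.027) or βFbln5KO replicate 2 (0.087) was left out. Sod2 read 0.78, 0.77, 1.13 and 0.64 in control and 0.84, 0.87, 0.93 and 1.07 in βFbln5KO, for which limma gave a log2 difference of 0.097 (SE 0.10, adjusted p = 0.667). Control replicate 3 was the highest of the 8, and without it the estimate was 0.20 and passed the unadjusted threshold, while without the array labelled βFbln5KO replicate 4 it was 0.049. Sod1 was the steadier of the 3, with an estimate of 0.027 and an interval of −0.13 to 0.18.

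Catalase and the glutathione peroxidases remove hydrogen peroxide and, in the case of Gpx4, lipid peroxides. Cat (chr2:103453904-103485153), the peroxisomal catalase, read −2.03, −1.95, −1.67 and −1.70 in control and −1.90, −1.87, −1.84 and −0.22 in βFbln5KO. The first 3 βFbln5KO arrays lie inside the control range, and the array labelled βFbln5KO replicate 4 lies far above all others. The log2 fold change was 0.38 (SE 0.36, adjusted p = 0.608) with that array and −0.033 (SE 0.12, adjusted p = 0.918) without it. Gpx7, a peroxidase of the endoplasmic reticulum, read −2.91, −2.80, −2.50 and −3.06 in control and −3.16, −2.85, −2.86 and −2.99 in βFbln5KO. The groups overlap, with control replicate 3 highest, and the log2 fold change was −0.15 (SE 0.16, adjusted p = 0.685). Leaving out 1 array at a time moved it between −0.23 and −0.040, the latter without control replicate 3. The selenoenzymes of this group had estimates between −0.13 for the secreted Gpx3 and 0.14 for Gpx2 (0.056 without control replicate 3), with 0.10 for Gpx1 and 0.030 for Gpx4. Gpx8, the other peroxidase of the endoplasmic reticulum, had −0.063, or −0.13 (SE 0.11) without the array labelled βFbln5KO replicate 4. None of these 7 passed the test. Gpx1 passed the unadjusted threshold when βFbln5KO replicate 2 was left out, at 0.14.

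The peroxiredoxins are thiol peroxidases that thioredoxin recharges. Among them is Prdx1, which had the smallest p of the members when each was read from its brightest probe. Prdx1 (chr4:116685599-116700000), the abundant cytosolic form whose promoter carries the element shown above, read 5.10, 5.16, 5.20 and 5.16 in control and 5.32, 5.22, 5.29 and 5.31 in βFbln5KO. All 4 βFbln5KO arrays lie above all 4 control arrays, by a small margin. The log2 fold change was 0.13 (SE 0.054, 95% interval 0.010 to 0.26, limma adjusted p = 0.165), a 1.1-fold difference that passed the unadjusted threshold and not the adjusted one. Its other 2 probes pointed the same way, at 0.073 (SE 0.077) and 0.083 (SE 0.041), and their intervals, −0.10 to 0.25 and −0.0095 to 0.17, include 0. Leaving out any 1 array kept the estimate between 0.11 and 0.16. The unadjusted call was lost without control replicate 1 (0.11), 2 (0.14) or 4 (0.13), and without βFbln5KO replicate 1 (0.12), 3 (0.13) or 4 (0.12).

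Prdx4 (chrX:155323918-155342272), the peroxiredoxin of the endoplasmic reticulum, had the lowest estimate of the 35. It read 1.60, 1.73, 2.57 and 2.23 in control and 1.65, 1.51, 1.70 and 1.98 in βFbln5KO. Control replicates 3 and 4 and the array labelled βFbln5KO replicate 4 were the highest, and the other 5 arrays lay within a narrow range. The log2 fold change was −0.32 (SE 0.21, 95% interval −0.79 to 0.15, adjusted p = 0.412). Acinar cells of the exocrine pancreas, which also carry much secretory machinery, can remain attached to isolated islets. Of 10 acinar markers 10, 9, 10 and 10 were well above background on the control arrays and 10, 9, 9 and 10 on the βFbln5KO arrays, and the transcription factor Ptf1a was the one that was not. The summed signal of the 10, in units of the 75th percentile, was 1249 to 3393 on the control arrays and 793.2 to 2136 on the βFbln5KO arrays. The mean log2 signal of the 9 markers seen on all arrays was highest on the same 3 arrays as Prdx4, at 8.49, 8.20 and 7.79, against 6.06 to 7.145 on the other 5. With that mean as a covariate, chosen after seeing the data, the Prdx4 estimate was 0.0056 (SE 0.14). The mean was 6.87 to 8.49 on the control arrays and 6.06 to 7.79 on the βFbln5KO arrays, so the covariate shares part of the difference between genotypes. The part of acinar cells in the Prdx4 difference was not tested. With no covariate, the Prdx4 estimate was −0.46 without control replicate 1, where it passed the unadjusted threshold, and −0.14 without control replicate 3. Without the array labelled βFbln5KO replicate 4 it was −0.41 (SE 0.23). In bulk islets, fewer cells of a type and less RNA per cell cannot be told apart. The other peroxiredoxins had estimates of 0.038 (Prdx2), 0.030 (Prdx3, and −0.016 without the array labelled βFbln5KO replicate 4), 0.059 (Prdx5) and 0.055 (Prdx6), and Srxn1, the sulfiredoxin that repairs overoxidized peroxiredoxins, had −0.039.

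**Figure D3:**
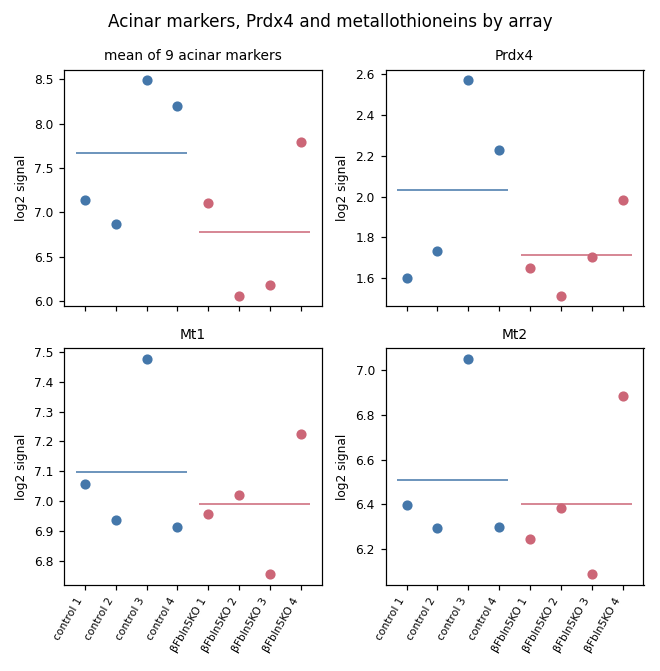
Log2 signal (y axis) on each of the 8 arrays (x axis) for the mean of 9 acinar markers, Prdx4, Mt1 and Mt2, with horizontal lines at the group means. Prdx4 is highest on the 3 arrays where the acinar mean is highest, and Mt1 and Mt2 are highest on control 3 and the array labelled βFbln5KO 4.

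The thioredoxin system reduces peroxiredoxins and other protein disulphides, and Txnip, a glucose-induced protein that binds thioredoxin, opposes it. Txnip (chr3:96557957-96561857) read 4.52, 4.34, 4.50 and 4.95 in control and 4.57, 4.71, 4.93 and 4.67 in βFbln5KO. Control replicate 4 was the highest array and the groups overlap, and the estimate was 0.14 (SE 0.13, limma adjusted p = 0.607). Without that control it was 0.27 and passed the unadjusted threshold. Txn2, the mitochondrial thioredoxin, read 3.40, 3.43, 3.29 and 3.42 in control and 3.57, 3.52, 3.47 and 3.41 in βFbln5KO. Only the array labelled βFbln5KO replicate 4 fell within the control range, and the log2 fold change was 0.11 (SE 0.054, limma adjusted p = 0.268). Without that array it was 0.14 (SE 0.053, adjusted p = 0.142) and passed the unadjusted threshold. The second Txn2 probe gave −0.015 (SE 0.11). Txn1, the cytosolic thioredoxin, had an estimate of −0.012.

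Among the thioredoxin reductases, Txnrd1 (cytosolic) had the estimate nearest to 0 of all members by its brightest probe, at 0.0034 (SE 0.040, interval −0.087 to 0.093). Its second, dimmer probe differed. Its mean log2 signal was 1.77 in control and 1.46 in βFbln5KO, and limma gave −0.31 (SE 0.065, interval −0.46 to −0.16, adjusted p = 0.0728). This probe is named after its values were seen, and the mean of both probes gave −0.15 (SE 0.045, limma adjusted p = 0.0935). The probes disagree, and the part of the transcript each one reads is not given in the sources used here. Txnrd2 (mitochondrial) had −0.076, with 0.021 from its second probe.

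Glutathione synthesis runs through Gclc and Gclm, the catalytic and modifier subunits of the rate-limiting ligase, and Gss, the synthase, while Gsr regenerates glutathione with NADPH that G6pdx supplies. All 5 had estimates above 0, from 0.017 (Gsr) to 0.079 (G6pdx), and none passed the test. Without the array labelled βFbln5KO replicate 4, Gsr was at −0.058. G6pdx read 1.87, 1.95, 1.72 and 1.91 in control and 2.05, 1.96, 1.91 and 1.86 in βFbln5KO, and limma gave 0.079 (SE 0.064, adjusted p = 0.536). Gss read 1.104, 1.074, 0.991 and 1.013 in control and 1.181, 1.057, 1.037 and 1.105 in βFbln5KO, and limma gave 0.050 (SE 0.051, adjusted p = 0.641). In both genes the groups overlap. Gclc and Gclm had 0.049 and 0.040, with intervals within a 1.2-fold change.

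None of the 5 Nrf2 pathway members passed the test. Hmox1, the haem oxygenase that Nrf2 and other stress pathways induce, read −0.18, −0.31, −0.07 and −0.32 in control and −0.31, −0.31, −0.60 and −0.03 in βFbln5KO. The array labelled βFbln5KO replicate 4 was the highest and βFbln5KO replicate 3 the lowest, and the log2 fold change was −0.091 (SE 0.12, interval −0.36 to 0.18, adjusted p = 0.731). Without the first of these arrays it was −0.19 (SE 0.10, limma adjusted p = 0.312). Keap1, the adaptor that marks Nrf2 for degradation, read 2.48, 2.55, 2.43 and 2.45 in control and 2.45, 2.44, 2.48 and 2.21 in βFbln5KO. It was lowest on the array labelled βFbln5KO replicate 4, and the log2 fold change was −0.082 (SE 0.065, adjusted p = 0.526) with that array and −0.022 without it. Nfe2l2 had an estimate of 0.040, or 0.0090 without that array. Sqstm1, the autophagy receptor that binds Keap1, had 0.046, and Nqo1, the quinone reductase, had −0.064, or −0.16 without the array labelled βFbln5KO replicate 4.

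Glutathione transferases join glutathione to electrophiles, and metallothioneins bind zinc and copper. Gsta4 (chr9:78191966-78209349), which detoxifies the lipid peroxidation product 4-hydroxynonenal, was the one member that islets hardly showed. It read −6.52, −5.51 and −5.84 on control arrays and −6.41, −6.47, −6.46 and 0.93 on the βFbln5KO arrays. Control replicate 4 was well above background but marked as an outlier spot, and its value was left out of the fit. Of the other 7 arrays, only the array labelled βFbln5KO replicate 4 was well above background, where Gsta4 lay far above the rest. The fitted log2 difference did not pass the test (limma adjusted p = 0.737). It sets that 1 array against signals not well above background, and without that array no value left in either group was well above background, so neither fit is read as a fold.

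Other detoxifying genes, picked for naming after their values were seen, were also highest on that array. Gsta3 read −3.42 to −1.83 on the other 7 arrays and 1.62 there. Mgst1, a membrane-bound transferase, read −2.62 to −1.29 elsewhere and 2.16 there. Aldh1a1, an aldehyde dehydrogenase, read −3.04 to −0.95 elsewhere and 0.89 there. These are the arrays' values beside the 12 hepatocyte markers given above, and their part in the Cat and Gsta4 differences was not tested beyond leaving the array out. Without it, Gsta3 and Aldh1a1 were lower in βFbln5KO, with log2 fold changes of −1.03 (SE 0.25, limma adjusted p = 0.0232) and −1.24 (SE 0.30, adjusted p = 0.0201), while Mgst1 did not pass (−0.73, SE 0.25, adjusted p = 0.092). With all 8 arrays Gsta3 and Aldh1a1 were at 0.20 (limma adjusted p = 0.943) and −0.29 (adjusted p = 0.889), and with the acinar covariate as well at 1.58 (SE 0.94) and 0.92 (SE 0.66). Both genes were highest among controls on replicates 3 and 4, where the acinar mean was highest, and the 3 βFbln5KO arrays left in had acinar means of 6.06 to 7.11. The part of acinar cells in these differences was not tested without that array.

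**Figure D4:**
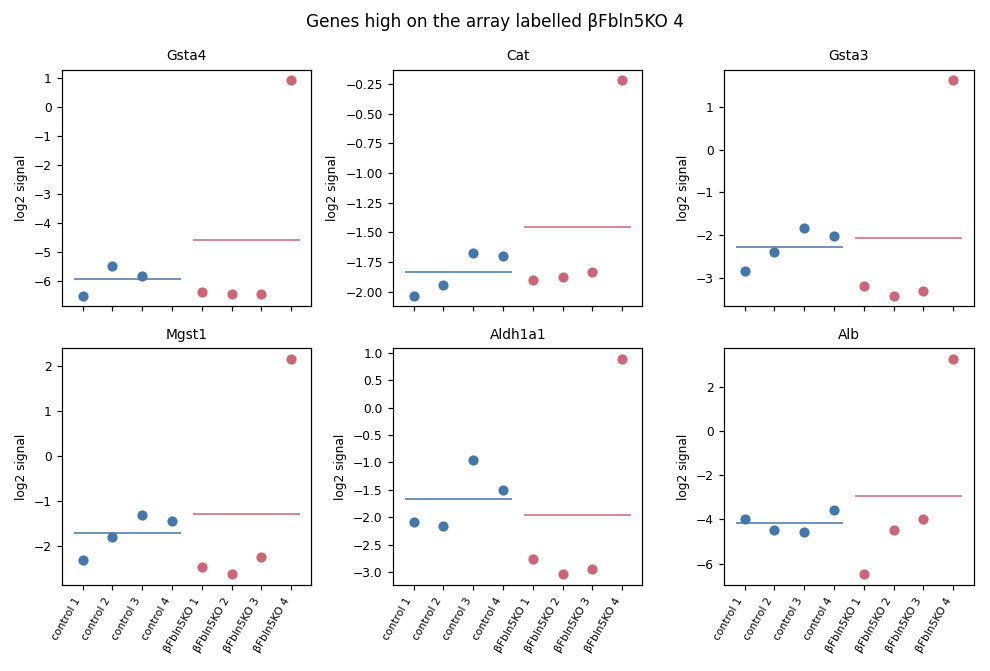
Log2 signal (y axis, its own range in each panel) on each array (x axis) for Gsta4, Cat, Gsta3, Mgst1, Aldh1a1 and the hepatocyte gene Alb, with horizontal lines at the group means; Gsta4 has no value on control 4. In every panel the array labelled βFbln5KO 4 is above all other arrays plotted.

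The metallothioneins Mt1 (chr8:94178883-94180327) and Mt2 (chr8:94172618-94173567) lie side by side and varied together across arrays. Mt1 read 7.06, 6.94, 7.48 and 6.91 in control and 6.96, 7.02, 6.75 and 7.23 in βFbln5KO. Mt2 read 6.40, 6.29, 7.05 and 6.30 in control and 6.24, 6.38, 6.09 and 6.89 in βFbln5KO. Both were highest on control replicate 3, next on the array labelled βFbln5KO replicate 4, and lowest on βFbln5KO replicate 3, and the groups overlap. The log2 fold changes were −0.11 (SE 0.15, adjusted p = 0.758) for Mt1 and −0.11 (SE 0.22, adjusted p = 0.837) for Mt2, and both turned sign without control replicate 3 (0.020 and 0.072). Without the array labelled βFbln5KO replicate 4 they were −0.19 and −0.27. The within-group SD of Mt2 was 0.355, the third largest of the members after Gsta4 and Cat. Gstm1, an abundant transferase, had 0.040 with all arrays and −0.036 without the array labelled βFbln5KO replicate 4.

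Another 111 redox genes, listed by role and not for how they moved, were read beside the members. Of these 108 had a named probe, 93 were well above background on each array and 9 on none. None passed an adjusted p of 0.05 in limma. At an unadjusted p under 0.05, 7 were higher and 1 was lower, and over all probes the shares were 20.7% higher and 3.97% lower. Of the 7, 6 (Gsta2, Slc7a11, Gpx6, Nox3, Nox4 and Duox1) were well above background on no array, so no fold is given for them. The others were Selenot, a selenoprotein of the endoplasmic reticulum, and Abcc1, which exports glutathione conjugates. Among genes well above background on all 8 arrays the shares were 1.01% higher and 3.08% lower. The counts of 1 higher and 1 lower among the 93 are near or below them. Selenot read 4.20, 4.16, 4.24 and 4.22 in control and 4.40, 4.18, 4.37 and 4.43 in βFbln5KO, and limma gave 0.14 (SE 0.063, adjusted p = 0.201). Without the array labelled βFbln5KO replicate 4 it was 0.12 (adjusted p = 0.347) and no longer passed the unadjusted threshold. Abcc1 read −0.61, −0.64, −0.72 and −0.72 in control and −0.99, −0.82, −1.07 and −1.41 in βFbln5KO. All 4 βFbln5KO arrays were lower than every control array, as in 2.07% of genes well above background on all 8 arrays. The log2 fold change was −0.40 (SE 0.12, limma adjusted p = 0.073). It was −0.29 (SE 0.078, adjusted p = 0.0374) without the array labelled βFbln5KO replicate 4. The median log2 fold change of the 93 genes was 0.0012.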

How the data were processed

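The authors deposited, for each array, the processed signal intensity of Agilent Feature Extraction 11.0.1.1 (background-subtracted and spatially detrended, per the paper's methods), spot flags, and a table of ratio values, each equal to that signal divided by 1 number per array within 1% for 100% of values. After log2 transformation, the 75th percentile of an array's 59305 non-control spots was subtracted from its values. Outlier-marked spots were left out (0.356% of values) and replicate spots averaged, giving 56605 probes, of which 32994 carried the symbol of 1 of 22911 genes through their RefSeq accession (GRCm38.p6). The 4 control and 4 βFbln5KO arrays were compared with limma 3.58.1 in R 4.3.3 (lmFit, eBayes with trend) and Benjamini-Hochberg adjustment over all probes at 0.05. The number of arrays limits the precision. The fit was tested on simulated data. The members and lists were chosen with earlier results of these data known. All 36 members are named. Values on every array are given for Sod3, for members with an unadjusted p under 0.05, and for the 2 members of each role group with the largest change among those well above background on all 8 arrays. Other redox genes are named at an unadjusted p under 0.05. Named after their values were seen were Gsta4's per-array values, Gsta3, Mgst1, Aldh1a1, the second Txnrd1 probe and the hepatocyte list (Alb, Apoa1, Apoa2, Apoh, Ahsg, Fga, Fgb, Fgg, Fabp1, Cyp2e1, Serpina3k and Tat). The alternatives were normexp background correction (offset 50, on median signals), quantile normalization, a filter that kept probes seen above background on 4 arrays or more, eBayes without trend, a common floor, outlier spots kept, the methods' t-test, the mean over the probes of a gene, a replicate block, the authors' table, each array left out in turn and, added after seeing the data, an acinar covariate.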

Additional observations from a re-analysis of the deposited data

Results flagged for a closer look

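In 7 of 71 groups of 4 arrays tested over the members, 1 array lay far from the other 3 relative to their spread (Dixon's test at the 95% level), and chance flags about 1 in 20 groups (3.55 of 71). On the array labelled βFbln5KO replicate 4, Cat read −0.22 (the others −1.90 to −1.84), Gsta4 0.93 (−6.47 to −6.41), Prdx3 1.66 (1.46 to 1.49) and Keap1 2.21 (2.44 to 2.48). On control replicate 3, Mt2 read 7.05 (6.29 to 6.40) and Sqstm1 5.35 (5.24 to 5.26), and on control replicate 1 Gclc read 1.09 (1.20 to 1.21).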

How the results depend on the processing

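No member passed an adjusted p of 0.05 in limma or the methods' t-test under any alternative run. Without the array labelled βFbln5KO replicate 4, the probes past it went from 5 higher and 1 lower to 11206 and 338, and the other redox genes from 0 to 9, of which Gsta2, Slc7a11, Gpx6, Nox3, Nox4 and Duox1 were well above background on no array and Gsta3, Aldh1a1 and Abcc1 on all 8. With eBayes without trend, 6184 higher and 394 lower probes and 5 redox genes passed. Leaving out 1 array at a time gave 0 to 2 members higher and 0 to 1 lower at an unadjusted p under 0.05, against 1 and 0 with all arrays. The other redox genes called were 6 to 10 higher and 1 to 7 lower, against 7 and 1. Over all probes these fits called 10933 to 13282 higher and 1697 to 2930 lower, against 11730 and 2246. The members' median stayed between −0.0023 and 0.044. No member (0) was called higher with the mean of probes (1 lower, Txnrd1), eBayes without trend or the replicate block. Normexp called Txn2 in place of Prdx1, and the acinar covariate called 2 higher (Cat, Prdx1) and 1 lower (Keap1). The redox genes called higher were 0 with normexp, 2 with quantile normalization and 1 with the filter, the common floor or the deposited table. Those called lower were 2 with the filter, the floor, eBayes without trend, the mean of probes, the methods' t-test or the acinar covariate, and 3 with the replicate block.

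The sign of some members' estimates turned. Leaving out 1 array moved Sod3 between −0.16 and 0.087, Cat between −0.033 and 0.53, Prdx3 between −0.017 and 0.063, Txn1 between −0.053 and 0.017, Txnrd1 between −0.0074 and 0.020, Gsr between −0.058 and 0.084, Nfe2l2 between −0.017 and 0.093, Nqo1 between −0.16 and 0.017, Hmox1 between −0.19 and 0.0041, Gsta4 between −0.49 (signals not well above background in both groups) and 1.98 (1 array against such signals), neither read as a fold, Gstm1 between −0.036 and 0.077, Mt1 between −0.19 and 0.020 and Mt2 between −0.27 and 0.072. Normexp gave −0.012 for Sod1, −0.027 for Txnrd1 and −0.021 for Gsr. Quantile normalization gave 0.043 for Mt1, and the mean of probes −0.15 for Txnrd1. The acinar covariate gave 0.032 for Sod3, 0.019 for Gpx8, 0.0056 for Prdx4, 0.026 for Txn1, −0.017 for Txnrd1, 0.067 for Nqo1, 0.043 for Hmox1, 0.057 for Mt1 and 0.17 for Mt2. The causes were not tested. The replicate block gave the same −0.49 for Gsta4, which again compares signals not well above background and is not read as a turned sign, and the other members' signs were kept. Same-numbered arrays did not all deviate together (correlations of 0.20, 0.295, −0.225 and −0.022 over 26341 probes). Replicates 1 and 2 correlated best with their own number, and replicates 3 and 4 did not. Whether the numbers pair the samples is not settled by these values. Gsta4 has no value under the filter or in the deposited table.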
